A study of Homo sapiens with 4 samples.

Results

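The genes described here repair broken and cross-linked DNA by homologous recombination and the Fanconi anaemia pathway. They were taken by name: a probe set of the platform annotation counted where its gene symbol was on a list of 35 genes. Of these, 27 had a probe set with that symbol alone, 1 probe set each, and all 27 passed the filter, a signal above the table median on any array, so that none was lost to the filter on low values. Another 3 genes, RAD51D, RAD54B and ATM, share their probe set with a neighbouring gene and are given apart. BRCA2, FANCA, FANCD2, XRCC2 and RBBP8 were not analysed here. The 27 genes stand among 12521 tested protein-coding genes.

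The cells are MV4-11, an established acute myeloid leukaemia cell line that carries a KMT2A-AFF1 fusion. Each of 4 cultures received 1 short hairpin RNA by transduction, and all of them, control included, then had 24 h of doxycycline at 3 µM. The hairpins were a RUNX1 hairpin labelled profound #1 (profound 1 below), a RUNX1 hairpin labelled profound #2 (profound 2), a RUNX1 hairpin labelled moderate, and a control hairpin labelled sh Luc. RNA of each culture was hybridised to 1 whole-transcript Affymetrix array, and values are log2 RMA signals, so that a difference of 1 unit is a 2-fold difference. RUNX1 is a transcription factor of blood cell development, and the study set depths of its knockdown side by side.

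With 1 array per hairpin no difference has a replicate check, no p-value is given, and a gene was counted as higher or lower by size alone, at 1.5-fold (0.585 log2 units). For scale, differences over all tested genes had a robust SD (from the median absolute deviation) of 0.263 for profound 1 minus control, 0.188 for profound 2 minus control and 0.167 for moderate minus control. That spread mixes array noise and real differences. The RUNX1 probe set is shared with LOC100506403 and read 4.07 in profound 1, 4.04 in profound 2, 4.33 in the moderate array and 4.27 in control. Profound 1 (-0.19) and profound 2 (-0.22) thus lay below control, but the moderate array (0.06) did not. These differences are small on a dim, shared probe set, so the labelled depths of knockdown cannot be read from it. The description fields of the profound 1 and profound 2 samples name RUNX2 and RUNX3, against their titles and genotypes, so each array is called by its label only. Of 10 myeloid and monocytic markers with a probe set, 9 were above the table median in at least 1 array and CD14 was not. Their median was 7.45 in profound 1, 7.50 in profound 2, 7.75 in the moderate array and 7.53 in control. ITGAM was dim, at 3.78 to 3.89, below the B cell marker CD79A (4.12 to 4.80). Also above the table median in at least 1 array were 2 of 3 B cell and 2 of 4 T and NK markers. So were 1 of 3 erythroid, 1 of 3 fibroblast and 2 of 4 epithelial markers. B, T and NK, erythroid, fibroblast and epithelial markers read between 1.79 and 4.80 in profound 1, between 1.52 and 4.35 in profound 2, between 1.55 and 4.64 in the moderate array and between 1.89 and 4.20 in control.

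Homologous recombination copies an intact sister chromatid to mend a break, and so works mainly in S and G2 phase. Broken ends are cut back by nucleases, BRCA1 and BRCA2 complexes prepare the exposed strand for exchange, and further cofactors and motor proteins help it to find and invade its template. The Fanconi pathway senses cross-links between strands: a core complex attaches ubiquitin to a clamp of FANCI and FANCD2, which brings in the nucleases and recombination factors. Many of these genes are transcribed with the cell cycle under E2F factors, whereas others are expressed at a steadier level.

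In profound 1 the repair genes were lower than in control as a group, while in profound 2 and the moderate array their differences were small. In profound 1, 14 of 27 were at least 1.5-fold lower, where 4.04% of all tested genes were, and 0 of 27 were 1.5-fold higher, where 2.68% of all tested genes were. The median difference of the 27 was -0.59 log2 units, beside -0.0029 over all tested genes. The members were chosen with earlier results of these data known, so this contrast is not independent of those results. No member differed 1.5-fold from control in profound 2 (2.21% of tested genes did in either direction) or in the moderate array (1.31%). The medians there were -0.18 for profound 2 and -0.08 for the moderate array. In bulk RNA, fewer cells of a kind (such as cells in S and G2 phase) and less RNA per cell cannot be told apart.

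The sign of the small differences was shared all the same. In profound 2, 25 of 27 members read below control, where 50.3% of all tested genes did. In the moderate array 22 of 27 did, where 48.1% of all tested genes did, and in profound 1 it was 25 of 27, where 50.5% did. These comparisons share the control array, which held the highest of the 4 values for 19 of 27 members (22.7% of all tested genes were highest there) and the lowest for none. Profound 1 held the lowest value for 23 of 27 members, where 32.7% of all tested genes were lowest.

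**Figure D1:**
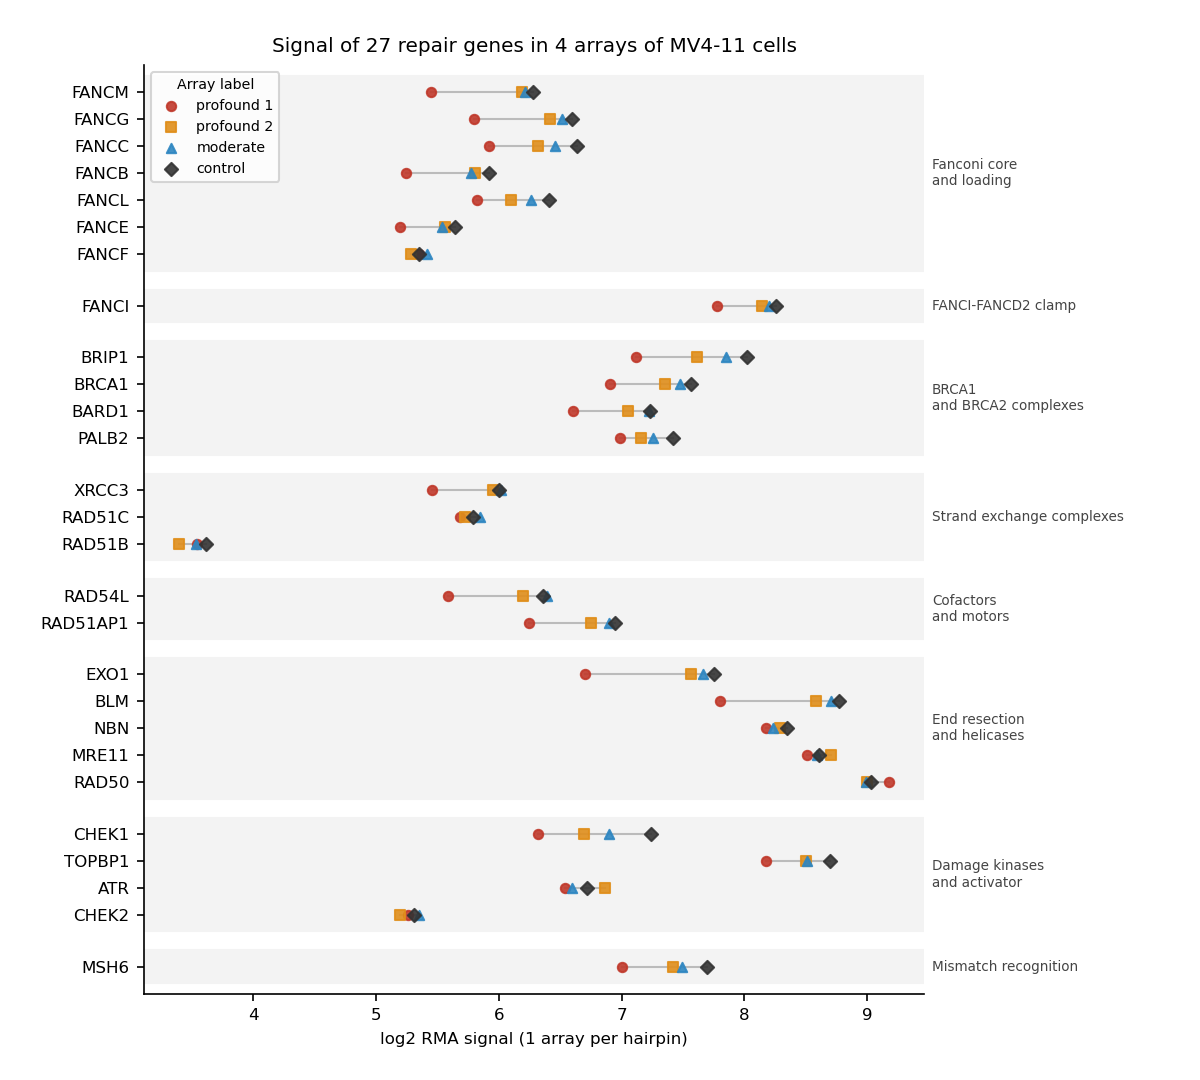
Log2 RMA signal (x axis) of the 27 repair genes in the arrays labelled profound 1, profound 2, moderate and control, 1 point per array, with genes grouped by role and the grey line spanning the range over the 4 arrays. For most genes the profound 1 point stands apart on the left, as for EXO1 at 6.70 against 7.57 to 7.75 in the other arrays, while RAD51C, RAD51B, FANCF, CHEK2 and the MRE11, RAD50 and NBN genes span at most 0.21 log2 units. Levels of different probe sets are not comparable.

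Of 7 Fanconi core genes measured, 5 were 1.5-fold lower in profound 1, where 4.04% of all tested genes were. They are 5 of the 14 lower members. FANCM, a DNA translocase that anchors the core complex to damaged DNA, read 5.44 in profound 1, 6.19 in profound 2, 6.21 in the moderate array and 6.28 in control. FANCG, a scaffold subunit, read 5.80 in profound 1, 6.41 in profound 2, 6.51 in the moderate array and 6.59 in control. In both genes the profound 1 array stood alone and the other arrays lay close together, and profound 1 was lower than control by 1.78-fold for FANCM and by 1.74-fold for FANCG.

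FANCC, a core subunit, read 5.92 in profound 1, 6.32 in profound 2, 6.46 in the moderate array and 6.64 in control. FANCL, the ubiquitin ligase of the complex, read 5.82 in profound 1, 6.10 in profound 2, 6.26 in the moderate array and 6.41 in control. These genes differ from FANCM and FANCG in that profound 2 also lay some way below control, at -0.32 for FANCC and -0.31 for FANCL. FANCB, the X-linked partner of FANCL in the catalytic module, read 5.25 in profound 1, 5.81 in profound 2, 5.78 in the moderate array and 5.92 in control.

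FANCF, the adaptor that joins subunits of the core complex, showed no such pattern. It read 5.36 in profound 1, 5.28 in profound 2, 5.42 in the moderate array and 5.35 in control, and profound 1 was 0.01 log2 units above control. FANCE, which links the core complex to its substrate, was 0.44 log2 units lower in profound 1 and stayed short of 1.5-fold. FANCI, the measured partner in the ubiquitinated clamp, read 7.78 in profound 1, 8.14 in profound 2, 8.20 in the moderate array and 8.26 in control. Its difference of -0.48 in profound 1 is also short of 1.5-fold, although it stood at -2.21 in units of the robust SD of genes of its level.

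Of the BRCA1 and BRCA2 complex genes, 3 of 4 were 1.5-fold lower in profound 1, where 4.04% of all tested genes were. BRIP1, the helicase that binds BRCA1 and is also known as FANCJ, read 7.12 in profound 1, 7.61 in profound 2, 7.85 in the moderate array and 8.02 in control. Its 4 values are spread out rather than split into 1 low and 3 high, with profound 2 at -0.41 and the moderate array at -0.18 log2 units from control. BRCA1, a ubiquitin ligase that promotes end resection, read 6.91 in profound 1, 7.35 in profound 2, 7.48 in the moderate array and 7.56 in control. BARD1, its obligate partner, read 6.60 in profound 1, 7.05 in profound 2, 7.23 in the moderate array and 7.23 in control. The partners thus kept nearly the same distance from control, at 1.57-fold lower for BRCA1 and 1.54-fold lower for BARD1 in profound 1. PALB2, the bridge between BRCA1 and BRCA2, read 6.99 in profound 1, 7.16 in profound 2, 7.26 in the moderate array and 7.42 in control, a difference of -0.43 in profound 1.

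RAD51B, RAD51C and XRCC3 encode proteins of complexes that aid strand exchange. None of them was 1.5-fold lower in profound 1. RAD51C, which partners both of the others, differed by -0.11, and RAD51B, its partner, read 3.54 in profound 1, 3.40 in profound 2, 3.54 in the moderate array and 3.61 in control. RAD51B is dim, close to the table median of 3.08, where RMA understates differences. XRCC3, which pairs with RAD51C, was nearest to the size rule from outside, at -0.55 in profound 1.

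Both cofactors with a probe set of their own were 1.5-fold lower in profound 1, where 4.04% of all tested genes were. RAD54L, a motor protein that drives strand exchange, read 5.59 in profound 1, 6.20 in profound 2, 6.39 in the moderate array and 6.36 in control. RAD51AP1, which stimulates strand invasion, read 6.24 in profound 1, 6.75 in profound 2, 6.90 in the moderate array and 6.95 in control. Profound 1 was lower than control by 1.71-fold for RAD54L and by 1.63-fold for RAD51AP1.

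The end-processing genes fell into separate kinds. EXO1, the exonuclease of long-range resection, showed the greatest difference among the 27 members, at 6.70 in profound 1, 7.57 in profound 2, 7.66 in the moderate array and 7.75 in control. It was the 1 member past 2-fold (2.06-fold lower in profound 1), and 0.383% of all tested genes differed downward by as much or more. BLM, the helicase mutated in Bloom syndrome, which acts in resection and in undoing joint molecules, read 7.80 in profound 1, 8.58 in profound 2, 8.71 in the moderate array and 8.77 in control. BLM was 1.95-fold lower in profound 1, at -4.40 in units of the robust SD of genes of its level, the furthest of the 27 on that scale.

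The MRN complex, which holds broken ends and starts their resection, did not share this. MRE11 (listed as MRE11A in the gene list used), its nuclease, read 8.51 in profound 1, 8.71 in profound 2, 8.59 in the moderate array and 8.61 in control. RAD50, its coiled-coil ATPase, read 9.17 in profound 1, 8.99 in profound 2, 8.98 in the moderate array and 9.03 in control. NBN, its signalling subunit, read 8.18 in profound 1, 8.29 in profound 2, 8.23 in the moderate array and 8.35 in control. The differences in profound 1 were -0.09 for MRE11, 0.14 for RAD50 and -0.17 for NBN, all within 1 robust SD of genes of their level (0.219).

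Among the damage kinases the replication checkpoint kinase CHEK1 stood out. It read 6.32 in profound 1, 6.70 in profound 2, 6.90 in the moderate array and 7.24 in control. All 3 RUNX1 hairpin arrays lay below control, by 0.92 log2 units in profound 1, 0.54 in profound 2 and 0.34 in the moderate array, and CHEK1 had the lowest difference of the 27 members both in profound 2 and in the moderate array. In profound 2 it was short of 1.5-fold.

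CHEK2, the kinase downstream of ATM, read 5.26 in profound 1, 5.19 in profound 2, 5.35 in the moderate array and 5.31 in control, a range of 0.16 log2 units. ATR, the kinase upstream of CHEK1, differed by -0.19 in profound 1 and by 0.14 in profound 2. TOPBP1, the activator of ATR, was 0.53 lower in profound 1 and short of 1.5-fold. CHEK1 was thus lower in profound 1 while the kinase above it in the pathway was not at 1.5-fold. MSH6, a mismatch recognition protein, read 7.003 in profound 1, 7.42 in profound 2, 7.49 in the moderate array and 7.69 in control, which is 1.61-fold lower in profound 1.

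The size rule cuts through a continuous series. Just inside it in profound 1 lay BRCA1 (-0.65), BARD1 (-0.62) and FANCL (-0.59), and just outside lay XRCC3 (-0.55), TOPBP1 (-0.53) and FANCI (-0.48). The wider gap in the members' differences lies further up, between PALB2 at -0.43 and ATR at -0.19.

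**Figure D2:**
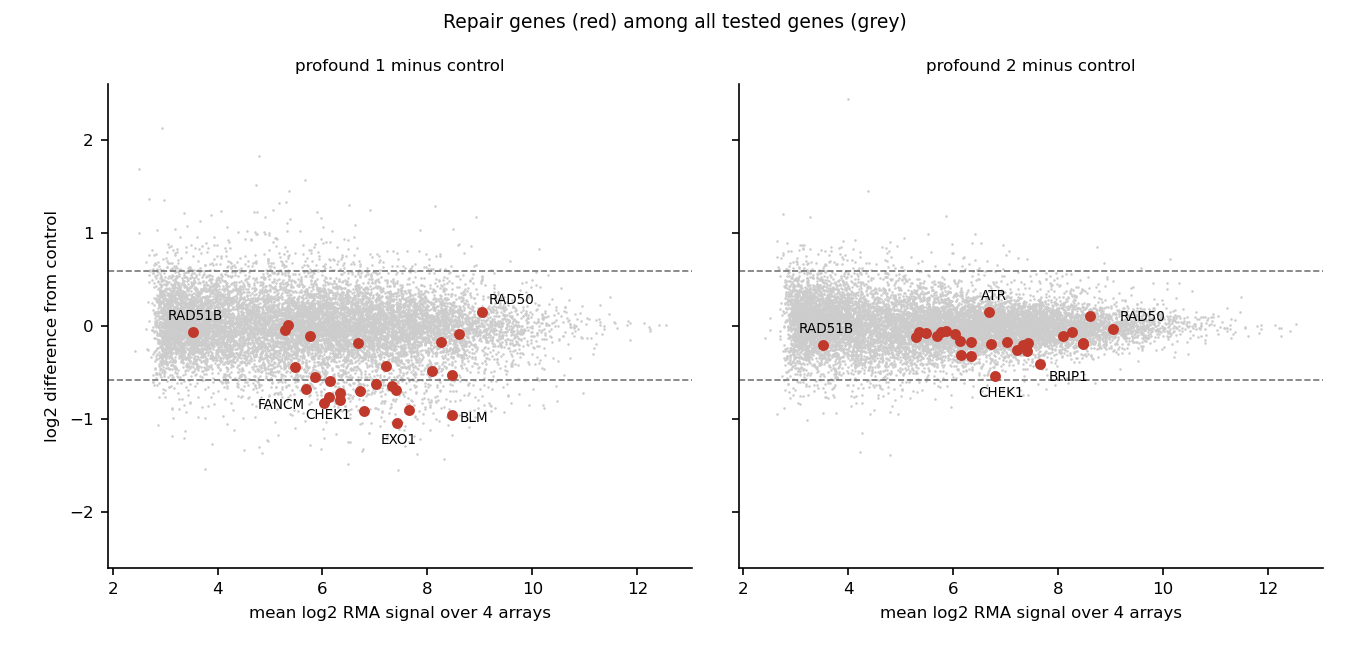
Log2 difference from the control array (y axis) against the mean log2 RMA signal over the 4 arrays (x axis) for profound 1 (left) and profound 2 (right), with the 27 repair genes in red, all 12521 tested genes in grey and dashed lines at 1.5-fold. In profound 1, 14 red points lie under the lower line, down to EXO1 at -1.04, and in profound 2 none does, with CHEK1 at -0.54 as the lowest.

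The shared probe sets bear on genes that cannot be read alone. The probe set of RAD54B, a second RAD54-type motor, is also assigned to FSBP and read 5.61 in profound 1, 6.37 in profound 2, 6.58 in the moderate array and 6.87 in control. It was 2.40-fold lower in profound 1, more than any of the 27, and 1.42-fold lower in profound 2. The probe set of ATM, the kinase that responds to breaks, is shared with NPAT, a histone gene activator, and differed by 0.04 in profound 1, -0.29 in profound 2 and 0.03 in the moderate array. The probe set of RAD51D, whose protein joins those of RAD51B and RAD51C in a complex, is shared with RFFL and the readthrough RAD51L3-RFFL and was 0.24 above control in profound 1. How the signal of these probe sets divides between the genes was not tested.

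The arrays of RUNX1 hairpins were then compared with each other, which leaves the control array out. In profound 1, 8 of 27 members were at least 1.5-fold lower than in the moderate array (3.49% of all tested genes were), and 0 of 27 were higher (1.65%). The 8 were EXO1 (-0.96), BLM (-0.90), RAD54L (-0.81), FANCM (-0.77), BRIP1 (-0.73), FANCG (-0.72), RAD51AP1 (-0.65) and BARD1 (-0.62). Against profound 2, 5 of 27 were 1.5-fold lower in profound 1 (2.95% of all tested genes were) and 0 of 27 higher (2.06%). These were EXO1 (-0.86), BLM (-0.78), FANCM (-0.74), FANCG (-0.62) and RAD54L (-0.61), each of which is also among the 8. The median of the 27 was -0.49 against the moderate array and -0.38 against profound 2. Profound 1 thus read low against each of the other arrays. Below the moderate array lay 25 of 27 members (51.8% of all tested genes), and 23 of 27 lay below profound 2 (51.1%). These comparisons all share the profound 1 array, so they are not independent of each other. Genes common to both counts are to be expected from that sharing.

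Between profound 2 and the moderate array there was little difference. No member differed 1.5-fold, where 2.64% of all tested genes did in either direction, and the median was -0.10 with a robust SD over all genes of 0.197. In sign, 21 of 27 were lower in profound 2, where 52.4% of all tested genes were. This comparison uses neither profound 1 nor control, which define the 14 lower members, and among those 14 the median was -0.13 with 13 below zero. Among the other 13 members the median was -0.06 with 8 below zero. BRIP1 (-0.23) was the lowest of the 27 here and ATR (0.27) the highest.

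**Figure D3:**
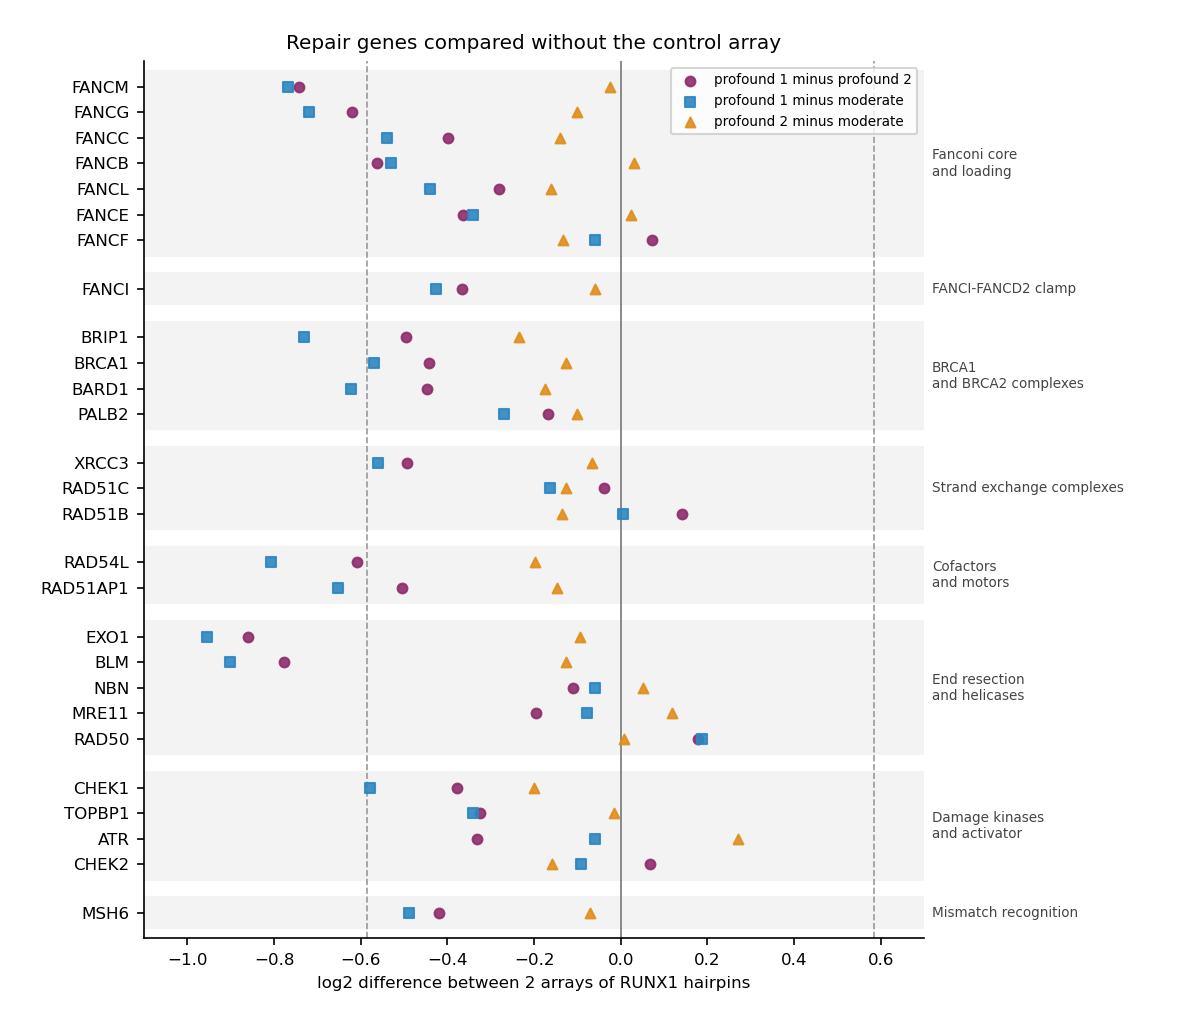
Log2 differences (x axis) of the 27 repair genes between arrays of RUNX1 hairpins, for profound 1 minus profound 2 (circles), profound 1 minus moderate (squares) and profound 2 minus moderate (triangles), grouped by role, with dashed lines at 1.5-fold. Circles and squares lie left of zero for most genes and reach -0.86 and -0.96 for EXO1, while the triangles stay between -0.23 for BRIP1 and 0.27 for ATR.

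Other genes of the same or linked pathways were counted from a list that excludes the 27. Of 56 measured, 12 were 1.5-fold lower in profound 1 (21.4%, where 4.04% of all tested genes were) and none higher, with a median of -0.25. They include MND1 (-0.91), a cofactor of meiotic and mitotic strand exchange, DNA2 (-0.89), a nuclease of long-range resection that works beside EXO1 and BLM, and RECQL4 (-0.86), a RecQ helicase. The others were PARPBP (-0.81), PSMC3IP (-0.78), the partner of MND1, UBE2T (-0.76), the ubiquitin-conjugating enzyme that works with FANCL, BABAM1 (-0.72), RMI1 (-0.68), a BLM partner, FIGNL1 (-0.66), FAN1 (-0.65), a Fanconi-associated nuclease, POLQ (-0.61) and MCM8 (-0.59). POLQ is a polymerase of alternative end joining and was counted here as listed. None of the 56 differed 1.5-fold in profound 2, where 2.21% of all tested genes did, or in the moderate array, where 1.31% did.

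Of 14 checkpoint partners, 5 were 1.5-fold lower in profound 1 (35.7%, where 4.04% of all tested genes were). None was higher (2.68% of all tested genes were), and the median was -0.50. CLSPN, the adaptor through which ATR reaches CHEK1, read 7.09 in profound 1, 8.10 in profound 2, 7.91 in the moderate array and 8.31 in control. CDC25A (-0.94), a phosphatase that CHEK1 targets, and WEE1 (-0.80), a kinase that restrains CDK1, were lower in profound 1, but in profound 2 they stood at 0.03 and 0.01 from control. H2AX (-0.80 in profound 1 and -0.46 in profound 2), the histone phosphorylated at breaks, and CDC25C (-0.59 in profound 1) were the other lower genes. CHEK1 and H2AX thus shared a lower reading in profound 2 that CDC25A and WEE1 did not have.

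Repair pathways that do not need a sister chromatid were counted beside them, where 4.04% of all tested genes were 1.5-fold lower in profound 1. These counts depend on how genes were placed in lists. POLQ (-0.61), a polymerase of alternative end joining, stood in the list of other recombination and Fanconi genes. FEN1 (-1.02), which also acts in excision repair, stood in the G1/S and replication list. Of 11 end joining genes as listed, which rejoin ends directly, none differed 1.5-fold in profound 1 and the median was -0.02. RIF1, which shields ends from resection, was the furthest at -0.51. Of 23 excision repair genes, 1 was lower in profound 1 (4.35%, near the share of all genes), UNG (-0.95), the uracil glycosylase, and the median was -0.0035. In profound 2, 1 of the 23 excision repair genes was past 1.5-fold, where 2.21% of all tested genes were in either direction. It was TDG, a thymine glycosylase, at 0.60 above control. The mismatch repair list, which leaves out the members MSH6 and EXO1, had 4 measured genes of 8 and none at 1.5-fold in profound 1, with MLH3 furthest at -0.37.

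Against control, cell-cycle genes moved with the members, and their part in the result was not tested. Of 40 genes of G1/S and replication, 31 were 1.5-fold lower in profound 1 (median -0.76), as were 20 of 25 genes of G2/M (median -0.73). Among all tested genes the share was 4.04%. In profound 2 it was 1 of 40 (UHRF1, -0.61) with a median of -0.17, and 0 of 25 with a median of -0.07. Of all tested genes, 2.21% differed 1.5-fold there in either direction. In the moderate array none of either list was at 1.5-fold (1.31% of all tested genes were). The medians there were -0.15 for G1/S and -0.12 for G2/M genes. Below control lay 37 of 40 G1/S and 22 of 25 G2/M genes in profound 2, where 50.3% of all tested genes did. In the moderate array it was 38 of 40 and 22 of 25, where 48.1% of all tested genes did. The shared sign against control described for the 27 was thus present in these lists too. Between profound 2 and the moderate array the lists and the members differed. Lower in profound 2 were 19 of 40 G1/S genes (median 0.001) and 10 of 25 G2/M genes (median 0.02). Of the members 21 of 27 were (median -0.10), where 52.4% of all tested genes were. CCNE2, the cyclin of S phase entry, was furthest in profound 1 at -1.55. The members' median of -0.59 in profound 1 therefore lay between that of the excision repair genes and those of the cell-cycle genes.

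Of 18 genes of E2F and DREAM complex factors, which activate or repress cell-cycle genes, 8 were 1.5-fold lower in profound 1 and 1 was higher (LIN37, 0.62). Among all tested genes, 4.04% were lower and 2.68% higher by that rule. FOXM1, a mitotic gene activator, read 6.85 in profound 1, 8.12 in profound 2, 7.98 in the moderate array and 8.23 in control. E2F1, an activator of S phase genes, read 5.83 in profound 1, 7.11 in profound 2, 6.92 in the moderate array and 7.18 in control. TFDP1, the dimerisation partner of E2F factors, read 5.94 in profound 1, 7.28 in profound 2, 6.60 in the moderate array and 7.27 in control. TFDP1 was also lower in the moderate array, by 0.67 log2 units, and the members' median there was -0.08. Whether TFDP1 bears on the members was not tested. The other lower genes were the repressors E2F7 (-1.24), E2F8 (-1.18) and RBL1 (-0.70) and the activators MYBL2 (-0.85) and E2F2 (-0.63), so that both kinds were among the 8.

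**Figure D4:**
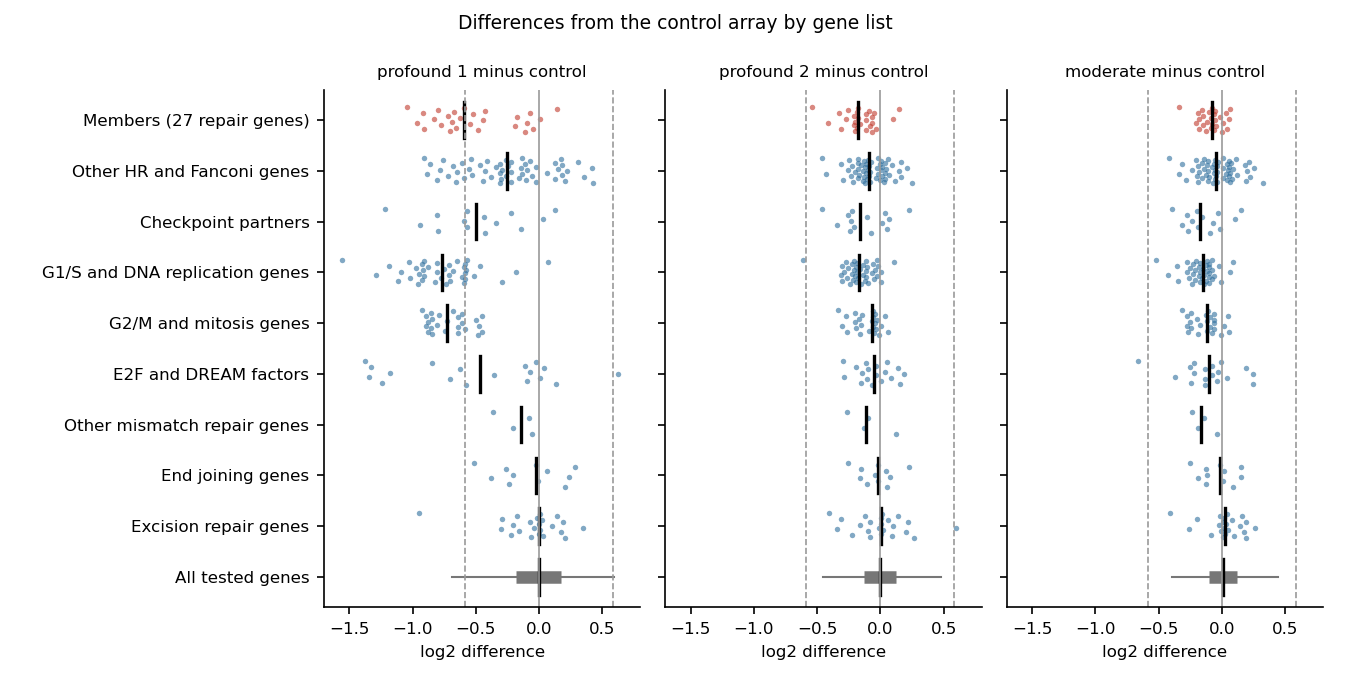
Log2 differences from the control array (x axis) in profound 1, profound 2 and the moderate array for the 27 repair genes (red) and 8 lists of other genes (blue), 1 point per gene, with black ticks at list medians and dashed lines at 1.5-fold. The bottom row gives the central 50% (thick) and 95% (thin) of all 12521 tested genes. In profound 1 the members' median is -0.59 and those of end joining and excision repair genes lie at -0.02 and -0.0035, while in profound 2 the members' median is -0.18.

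Since members of several roles were lower together, their promoters were searched for short words of known regulators in the 250 bases before the start. The sequences are those of RefSeq on GRCh38.p14, whose table held 25 of the 27 genes (not FANCI or NBN), 8 of them with more than 1 start. E2F-type words were TTTGGCGC, TTTCCCGC, TTTGCCGC, TTTCGCGC, TTTGGCGG and TTTCCCGG, CHR-type words (a cell-cycle repressor element) TTTGAA and TTCGAA, RUNX-type words TGTGGT and TGCGGT, and CCAAT the box bound by NF-Y. Both strands were searched, overlaps were allowed, and a gene counted where any of its starts had a match.

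E2F-type words were found at about the share of all genes. They were present in 1 of the 14 lower members (7.14%), FANCC, and in 2 of the 11 others with a promoter (18.2%), ATR and RAD50, beside 7.46% of 15843 protein-coding genes. A CCAAT word was found in 8 of 14 lower members (57.1%) and in 5 of 11 others (45.5%), beside 40.2% of protein-coding genes. RUNX-type words were found in 4 of 14 (28.6%) and 3 of 11 (27.3%), beside 19.9%, and CHR-type words in 2 of 14 (14.3%) and 0 of 11, beside 15.6%. With so few genes these shares are descriptions, and a word outside this window or in another spelling would not be seen.

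The promoters of BLM and BRIP1 are shown for their repeated CCAAT words among the lower members, and that of FANCC as the lower member with E2F-type words (at the start that holds them). ATR and RAD50 are shown as the other members with an E2F-type word, and FANCF and CHEK2, with CCAAT words, for the smallest differences in profound 1. BLM and BRIP1 were chosen after their values were seen. Each line gives the 250 bases before the start, 5′ to 3′ on the strand of the gene, with matches to any searched word on either strand in capitals.
BLM (chr15:90717096-90717345, plus strand): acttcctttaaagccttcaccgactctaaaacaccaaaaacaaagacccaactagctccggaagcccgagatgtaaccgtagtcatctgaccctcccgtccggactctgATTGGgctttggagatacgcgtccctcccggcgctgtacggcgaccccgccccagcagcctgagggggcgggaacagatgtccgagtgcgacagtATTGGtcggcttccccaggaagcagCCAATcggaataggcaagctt
BRIP1 (chr17:61863529-61863778, minus strand): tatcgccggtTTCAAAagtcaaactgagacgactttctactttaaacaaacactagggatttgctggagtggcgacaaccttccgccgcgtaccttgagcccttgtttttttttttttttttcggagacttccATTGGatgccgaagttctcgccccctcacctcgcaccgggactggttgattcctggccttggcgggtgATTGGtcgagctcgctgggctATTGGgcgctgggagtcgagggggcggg
FANCC (chr9:95317710-95317959, minus strand): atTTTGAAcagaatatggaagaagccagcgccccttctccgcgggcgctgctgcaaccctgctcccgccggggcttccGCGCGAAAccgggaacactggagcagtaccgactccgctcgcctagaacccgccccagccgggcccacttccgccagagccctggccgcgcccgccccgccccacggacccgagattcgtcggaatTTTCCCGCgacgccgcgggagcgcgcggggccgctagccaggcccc
ATR (chr3:142578734-142578983, minus strand): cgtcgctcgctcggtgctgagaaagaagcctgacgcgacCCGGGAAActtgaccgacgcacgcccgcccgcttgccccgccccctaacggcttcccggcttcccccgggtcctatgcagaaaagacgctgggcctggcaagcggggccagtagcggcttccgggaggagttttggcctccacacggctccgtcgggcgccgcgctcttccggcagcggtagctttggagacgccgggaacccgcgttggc
RAD50 (chr5:132556727-132556976, plus strand): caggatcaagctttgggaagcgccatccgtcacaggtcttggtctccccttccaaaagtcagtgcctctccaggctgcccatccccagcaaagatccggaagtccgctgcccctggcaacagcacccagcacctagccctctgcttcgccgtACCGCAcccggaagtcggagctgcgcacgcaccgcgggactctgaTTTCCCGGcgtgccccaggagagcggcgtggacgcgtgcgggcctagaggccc
FANCF (chr11:22625824-22626073, minus strand): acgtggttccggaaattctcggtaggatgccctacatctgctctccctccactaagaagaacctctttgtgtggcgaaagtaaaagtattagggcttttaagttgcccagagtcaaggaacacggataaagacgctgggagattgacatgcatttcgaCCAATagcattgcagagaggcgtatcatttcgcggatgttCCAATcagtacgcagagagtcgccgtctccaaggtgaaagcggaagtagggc
CHEK2 (chr22:28741821-28742070, minus strand): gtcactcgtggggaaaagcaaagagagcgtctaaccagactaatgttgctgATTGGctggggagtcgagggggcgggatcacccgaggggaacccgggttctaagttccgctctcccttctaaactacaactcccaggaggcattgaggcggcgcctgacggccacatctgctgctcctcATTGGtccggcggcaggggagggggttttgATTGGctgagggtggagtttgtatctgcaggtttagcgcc

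Read side by side, BLM has 3 CCAAT words and a difference of -0.96 in profound 1, and CHEK2 has 3 as well and a difference of -0.05. Repeated CCAAT words also lay before the lower members CHEK1, FANCM and RAD54L. They lay as well before XRCC3, MRE11 and FANCF, which were not 1.5-fold lower in profound 1. FANCC holds an E2F-type word 46 bases before its start and differed by -0.72, and RAD50 holds one 53 bases before its start and differed by 0.14. Whether any of these words bears on the differences was not tested.

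**Figure D5:**
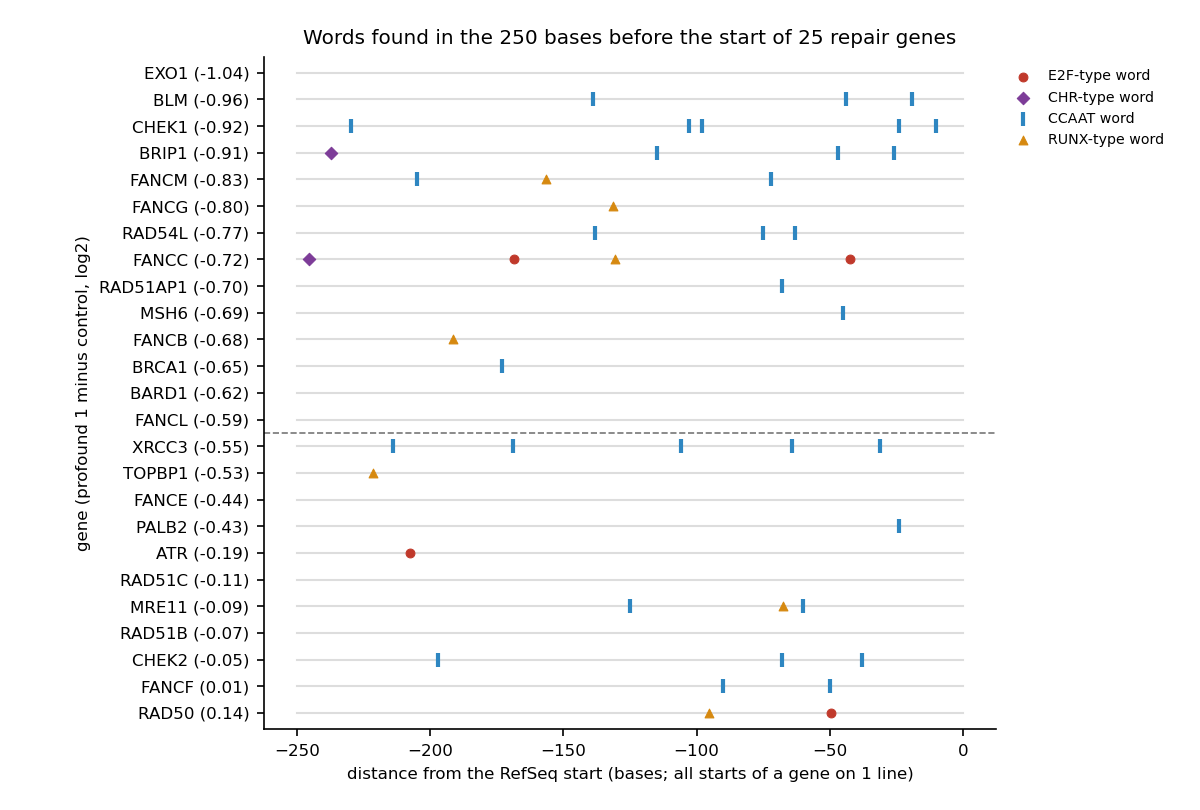
Position of each word (x axis, bases before the RefSeq start) in the promoters of 25 repair genes ordered by their profound 1 minus control difference (log2, in brackets), with the dashed line at 1.5-fold lower. CCAAT words appear above and below the line, and E2F-type words appear in FANCC above it and in ATR and RAD50 below it.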

How the data were processed

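Per the submitters' processing notes, the authors made the deposited log2 signals by RMA, with Transcriptome Analysis Console 1.0 and Affymetrix Expression Console 1.3.1 named as software. Their settings and build: not given in the sources used here. RMA equalises array distributions (medians 3.07 to 3.09), so a shift of most genes cannot be seen, and it understates differences of dim probe sets. The number of arrays limits the precision. All 4 columns were used.

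Of 53617 probe sets, 23871 have 1 gene symbol in the platform annotation, 1842 several and 27904 none listed. Symbols were updated with RefSeq (GRCh38.p14): 23214 unchanged, 88 by Entrez ID, 565 by synonym and 4 kept. Protein-coding genes above the table median (3.08) in at least 1 array were tested, each by its brightest probe set. The members and all gene lists were chosen with earlier results of these data known. By rule, values in each array are given for members past 1.5-fold and the member of each role that differed least in profound 1, up to 3 genes of each other list are named by size in profound 1, and promoters are printed for up to 4 members with an E2F-type match and the 2 that differed least. Other genes named from the lists, and values in each array for other members, were added after their values were seen. The robust SD is 1.4826 times the median absolute deviation, also taken within 6 level classes. Groups follow the genotype field. Python 3.11.15, pandas 2.3.3, R 4.3.3 and limma 3.58.1 (cyclic loess) were used. Alternatives varied the level filter, probe set, scaling and fold.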

Additional observations from a re-analysis of the deposited data

How the results depend on the processing

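No paired analysis was possible because each hairpin has 1 array, and for the same reason no array could be left out within a group. Across 3 other level filters, the mean over probe sets, median centring, cyclic loess and an alternative added after seeing the data (shared probe sets counted), the members at 1.5-fold numbered 14 to 15 for profound 1 minus control, 7 to 9 for profound 1 minus moderate, 5 to 6 for profound 1 minus profound 2, and 0 in the other 3 comparisons. Over the same alternatives the members' median lay between -0.61 and -0.57 for profound 1 minus control, between -0.18 and -0.16 for profound 2 minus control and between -0.12 and -0.08 for moderate minus control. Counts depend on the fold chosen. Where a difference of 25% was enough, members were counted out of 27, with the share of all tested genes that were lower in brackets. Profound 1 had 19 lower against control (13.2%), 18 against profound 2 (13.0%) and 18 against the moderate array (12.8%). Profound 2 had 3 lower against control (6.42%) and 0 against the moderate array (8.23%). The moderate array had 1 lower against control (4.46%). Counts of so few genes are not read as a result about the members. At 2-fold the counts were 1 for profound 1 minus control (0.471%), 0 for profound 1 minus profound 2 (0.264%) and 0 for profound 1 minus moderate (0.296%). No difference of 1.5-fold changed sign under these alternatives. Of the values for single genes and for the other lists, 1882 moved by less than the robust SD over tested genes (counts by less than 1.5 times) and 32 moved by more, nearly all of them counts at the other folds. With 1 array per hairpin, array-to-array spread was not measured, so no difference could be set against it. This holds for profound 1 as well as for the smaller differences in profound 2 and the moderate array.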
